A study of Mus musculus with 18 samples.

Results

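The 10 genes described here belong to the arrest and feedback arm of the p53 response: Trp53 itself, Cdkn1a, Mdm2, Ccng1, Ppm1d, Phlda3, Plk2, Zmat3, Btg2 and Gadd45a. They were chosen by name, and Ensembl identifiers were matched to symbols in each of the 3 deposited comparisons of CX-5461 against vehicle. All 10 were among the 12679 genes of p53WT leukaemia at 10 h and among the 12838 genes of p53WT leukaemia at 72 h. The p53null table, with 12861 genes, held 7 of them and did not list Phlda3, Plk2 or Zmat3. Over the 3 tables together 13787 genes were listed.

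RNA was sequenced from a mouse acute myeloid leukaemia (AML) that carries the MLL/ENL fusion and Nras, grown by transplant in syngeneic C57BL/6 mice. The samples formed 6 groups of 3: CX-5461 and vehicle for p53null AML after 10 h, CX-5461 and vehicle for p53WT AML after 10 h, and CX-5461 and vehicle for p53WT AML after 72 h. CX-5461 is a small molecule that inhibits transcription of ribosomal RNA genes by RNA polymerase I. Leukaemic cells were recovered from marrow by sorting on GFP, and libraries came from an unstranded kit. All 6 groups shared the MLL/ENL and Nras background and the C57BL/6 host. The labels give no age of the mice, no dose, no promoter behind the transgenes and no account of which piece of Trp53 the p53null cells lack. Titles of the p53WT and p53null samples at 10 h bear 2 different tags that the labels do not explain, so genotype and whatever the tag marks cannot be told apart. Titles at 72 h follow another scheme with neither tag, so time and whatever the titles mark cannot be told apart either. The labels do not say that samples of a group came from separate mice, so p-values measure only the spread between these samples.

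As background, p53 is a transcription factor that MDM2 marks for destruction in resting cells. Stress signals, among them disturbed ribosome production that frees ribosomal proteins to bind MDM2, let p53 accumulate through protein stability rather than through its own messenger RNA. p53 then binds pairs of short response elements near its targets, among them Cdkn1a, whose product p21 blocks cyclin-dependent kinases, and Mdm2 itself, which closes a negative feedback loop.

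Promoter sequence is given first for 5 members, chosen because they span the range of the 10 h response: Cdkn1a, Phlda3, Plk2 and Ccng1, which rose, and Gadd45a, which did not. Each is a window of 300 bases, 250 before the transcription start and 50 from it, read 5′ to 3′ along the gene from the RefSeq promoters of GRCm38.p6. That build differs from mm9, the build of the deposited counts. Capitals mark p53 half-sites, the letters ACATGT and the letters TGACGTCA.
Cdkn1a, upstream start, chr17:29090729-29091028, plus strand: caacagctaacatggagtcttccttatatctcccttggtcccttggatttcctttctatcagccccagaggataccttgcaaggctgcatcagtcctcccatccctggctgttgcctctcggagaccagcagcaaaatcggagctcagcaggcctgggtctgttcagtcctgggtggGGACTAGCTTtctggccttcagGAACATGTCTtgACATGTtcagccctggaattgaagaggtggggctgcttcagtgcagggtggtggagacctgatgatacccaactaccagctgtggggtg
Phlda3, chr1:135765835-135766134, plus strand: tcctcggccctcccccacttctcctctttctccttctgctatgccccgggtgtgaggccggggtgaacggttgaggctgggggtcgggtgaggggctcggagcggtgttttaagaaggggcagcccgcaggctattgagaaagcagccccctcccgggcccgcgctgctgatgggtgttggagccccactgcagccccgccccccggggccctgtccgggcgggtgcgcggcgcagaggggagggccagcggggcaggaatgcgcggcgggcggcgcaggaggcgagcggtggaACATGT
Plk2, chr13:110394794-110395093, plus strand: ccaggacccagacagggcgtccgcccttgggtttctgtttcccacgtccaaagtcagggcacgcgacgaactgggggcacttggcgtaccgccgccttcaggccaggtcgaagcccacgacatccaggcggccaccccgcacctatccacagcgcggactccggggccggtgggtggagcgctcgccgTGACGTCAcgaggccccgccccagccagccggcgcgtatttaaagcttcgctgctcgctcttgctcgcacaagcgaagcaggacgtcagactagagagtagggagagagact
Ccng1, chr11:40755237-40755536, minus strand: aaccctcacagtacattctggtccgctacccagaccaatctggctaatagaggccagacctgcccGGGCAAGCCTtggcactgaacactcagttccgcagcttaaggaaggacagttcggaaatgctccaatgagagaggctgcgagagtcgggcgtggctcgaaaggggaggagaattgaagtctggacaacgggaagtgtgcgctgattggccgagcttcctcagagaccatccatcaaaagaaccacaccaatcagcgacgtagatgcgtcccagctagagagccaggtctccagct
Gadd45a, chr6:67037358-67037657, minus strand: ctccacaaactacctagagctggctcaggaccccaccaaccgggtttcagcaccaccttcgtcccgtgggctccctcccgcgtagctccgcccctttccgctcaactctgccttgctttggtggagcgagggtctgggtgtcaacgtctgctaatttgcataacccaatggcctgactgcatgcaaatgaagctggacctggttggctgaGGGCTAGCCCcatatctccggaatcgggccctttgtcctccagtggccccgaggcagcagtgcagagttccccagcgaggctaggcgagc
RefSeq held a promoter entry for 9 members, with 10 windows in all, because Cdkn1a has 2 starts that lie 2790 bases apart; Zmat3 had none. A match to the p53 half-site consensus, which reads the same on both strands, was found in the windows of 6 members: Cdkn1a (upstream start only), Mdm2, Ccng1, Ppm1d, Trp53 and Gadd45a. By comparison, 8.36% of 32851 mouse promoter windows of the same length held one. The windows of Phlda3, Plk2 and Btg2 and the downstream window of Cdkn1a held none. The matches were GGGCAAGCCT at -185 in Ccng1, GAACTTGCCT at -186 in Mdm2, GAGCTTGCTC at -132 in Ppm1d, GGACTTGCCC at -75 in Trp53 and GGGCTAGCCC at -40 in Gadd45a, counted from the start site. The upstream window of Cdkn1a held GGACTAGCTT at -73 and GAACATGTCT at -51. It was the only member window with a pair of half-sites at most 13 bases apart, an arrangement found in 0.0731% of all windows. The second of these lies in the inverted repeat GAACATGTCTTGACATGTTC, which contains ACATGT at -49 and again at -39. An inverted repeat with arms of 9 bases and at most 4 bases between them occurred in 1.48% of all windows, and among the members also in Mdm2. The palindrome ACATGT, found in 5.28% of windows, also ended the Phlda3 window at position 45. TGACGTCA, a palindrome known as the full cAMP response element and found in 1.79% of windows, stood at -62 in Plk2, at -85 in Ppm1d and at -166 in Btg2, and overlapped no half-site. ACATGT, TGACGTCA and the inverted repeat were searched after the sequences had been seen. These matches describe letters and not binding, and genes that rose and genes that did not both had them. The p53-responsive promoter of Mdm2 lies in its first intron, outside this window.

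Counts for each library were available for p53WT AML at 10 h, with totals of 21578685 to 48118513 per library. For the other comparisons the deposited tables give a log2 fold change, a mean log2 CPM and a false discovery rate (FDR) and no value per library, so their depth and spread are unknown. Levels at 10 h in p53WT AML are TMM-normalised CPM (counts scaled to a common library size). All 10 leukaemia markers (Hoxa9, Hoxa10, Meis1, Myc, Kit, Flt3, Mpo, Ptprc, Spi1 and Cebpa) were measured in every table. Their summed level at 10 h in p53WT AML was 9290 to 9509 CPM with CX-5461 and 7030 to 9328 CPM with vehicle, most of it from Mpo. Of these 10, Ptprc was lower at 10 h in p53WT AML (log2 fold change -0.41, edgeR quasi-likelihood adjusted p = 0.0344), while at 72 h 2 were higher and 4 lower in the authors' deposited table. Vehicle libraries stood apart in markers of erythroid cells and mature neutrophils. The 15 erythroid markers summed to 472, 685 and 583 CPM in CX libraries 1, 2 and 3, and to 5985, 20060 and 793 CPM in vehicle libraries 1, 2 and 3. The 15 mature neutrophil markers summed to 3587, 4711 and 3469 CPM with CX-5461 and to 11400, 20620 and 8073 CPM with vehicle. By edgeR's quasi-likelihood test with Benjamini-Hochberg adjustment, at 0.05, 9 erythroid, 11 neutrophil and 3 of 12 monocyte and macrophage markers were lower with CX-5461 and none of these 3 lists held one that was higher. The 12 monocyte and macrophage markers summed to 1624 to 1923 CPM with CX-5461 and to 1730 to 2455 CPM with vehicle. Of the markers of lymphoid cells, 1 of 3 measured for B cells was lower and 1 of 2 for T and NK cells, Nkg7, was higher, and 0 of 4 megakaryocyte and 0 of 4 stromal and endothelial markers passed. No measured marker was at 0 in any library. In such bulk samples, fewer cells of a type and less RNA per cell cannot be told apart. Whether the RNA of these markers came from the leukaemic cells or from other cells was not tested.

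Trp53 (ENSMUSG00000059552), the gene for p53, was measured at 183, 182 and 180 CPM with CX-5461 and at 168, 142 and 160 CPM with vehicle in p53WT AML at 10 h. All CX libraries lay above all vehicle libraries, and the CX libraries lay within a few CPM of each other. The log2 fold change was 0.21 (SE 0.067, 95% interval 0.056 to 0.37), with an adjusted p of 0.0826 by the edgeR quasi-likelihood test, which missed the threshold. The call depended on the setting, since DESeq2 gave an adjusted p of 0.0415 and the edgeR quasi-likelihood test without vehicle library 1 gave 0.0461. In p53null AML the authors' deposited table implied group levels of 61.7 CPM with CX-5461 and 61.3 CPM with vehicle. The vehicle level implied by that table was 0.392 times that of p53WT AML at 10 h, across tables that were normalised separately. Reads of Trp53 were thus still counted in the cells labelled p53null, and which part of the gene those counts cover cannot be read from a gene total. At 72 h in p53WT AML the authors' deposited table implied 158 CPM with CX-5461 and 169 CPM with vehicle, with a log2 fold change of -0.10 (FDR 0.332).

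Of the 10 members, 6 rose and 0 fell in p53WT AML at 10 h (edgeR quasi-likelihood test, adjusted p under 0.05). Among all 12679 genes 3.78% rose and 4.32% fell. At an unadjusted p under 0.05 by the same tool, 8 members were higher and 1 was lower. The authors' deposited table had 6 members that rose and 1 that fell at an FDR of 0.05, where 3.57% and 6.83% of all genes did. The count of members that fell was 1 by the edgeR exact test, 1 by DESeq2 and 0 by limma-voom. Of all genes 1020, 1352 and 330 fell by these tools. In 8 members every CX library exceeded every vehicle library, which held for 19.9% of all genes. In no member did every CX library lie below every vehicle library, which held for 19.1% of all genes, and in the other 2, Btg2 and Gadd45a, the groups overlapped. The median log2 fold change was 0.94 over the members and 0.00404 over all genes tested.

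**Figure D1:**
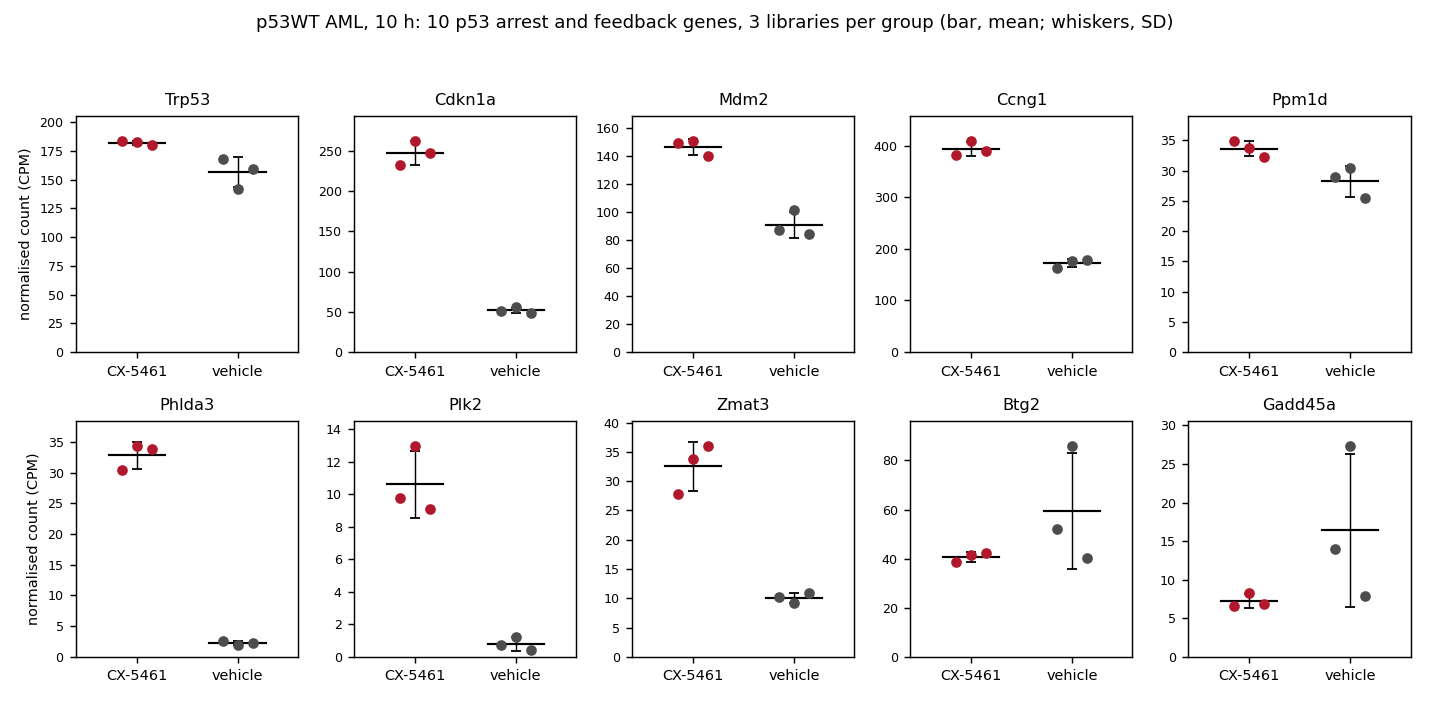
Level of each member in p53WT AML at 10 h in TMM-normalised CPM (y axis, from 0), with 3 CX-5461 libraries left of 3 vehicle libraries; points are libraries, bars means and whiskers SD. Cdkn1a, Mdm2, Ccng1, Phlda3, Plk2 and Zmat3 separate clearly, and Trp53 and Ppm1d by a small margin. In Btg2 and Gadd45a the lowest vehicle library lies within the range of the CX libraries and the other vehicle libraries lie above it.

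Cdkn1a (ENSMUSG00000023067), which encodes the cyclin-dependent kinase inhibitor p21, had the smallest p of all 12679 genes at 10 h by the edgeR quasi-likelihood test. By p in the authors' deposited table, Phlda3 had rank 1 and Cdkn1a rank 3. The level of Cdkn1a was 232, 262 and 247 CPM in the CX libraries, against 51.2, 55.3 and 48.7 CPM in the vehicle libraries. The lowest CX library thus stood far above the highest vehicle library, and the spread within each group was small. The log2 fold change was 2.25 (95% interval 2.09 to 2.42, edgeR quasi-likelihood adjusted p = 8.19e-05). An antisense transcript, AC167363.2, shares 273 of the 3553 exonic bases of Cdkn1a in the GENCODE vM21 annotation, and without strand its reads cannot be told apart from those of Cdkn1a.

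The feedback on p53 was represented by Mdm2, Ccng1 and Ppm1d, of which Ccng1 and Mdm2 rose. Mdm2 (ENSMUSG00000020184), the ubiquitin ligase that degrades p53, was measured at 149, 151 and 140 CPM with CX-5461 and at 87.5, 101 and 84.0 CPM with vehicle. It rose 1.61-fold, a log2 fold change of 0.69 (95% interval 0.51 to 0.87, edgeR quasi-likelihood adjusted p = 0.0134). Without CX library 1, 2 or 3 in turn its log2 fold change was 0.68, 0.67 and 0.72, with an adjusted p of 0.102, 0.105 and 0.0697 in that test, in fits that called 24, 23 and 23 genes higher over the whole table. Ccng1 (ENSMUSG00000020326), whose product cyclin G1 recruits a phosphatase to MDM2, was measured at 382, 408 and 390 CPM with CX-5461 and at 164, 176 and 179 CPM with vehicle. It rose 2.28-fold, with a log2 fold change of 1.19 (95% interval 1.06 to 1.32, edgeR quasi-likelihood adjusted p = 0.000208). Ppm1d (ENSMUSG00000020525) encodes WIP1, a phosphatase that removes activating phosphates from p53 and its kinases. It was measured at 34.8, 33.7 and 32.3 CPM with CX-5461 and at 29.0, 30.4 and 25.4 CPM with vehicle. All CX libraries lay above all vehicle libraries, but the log2 fold change of 0.25 (95% interval 0.060 to 0.44) had an adjusted p of 0.0891 by the edgeR quasi-likelihood test and missed the threshold.

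Phlda3 and Plk2 had the largest fold changes of the 10 members, and Zmat3 rose as well. Phlda3 (ENSMUSG00000041801), which encodes a small protein that competes with AKT for the membrane, was measured at 30.4, 34.3 and 33.8 CPM with CX-5461 and at 2.60, 1.89 and 2.24 CPM with vehicle. The ratio of the means was 14.6, and the log2 fold change was 3.85 (95% interval 3.54 to 4.16, edgeR quasi-likelihood adjusted p = 8.19e-05). Plk2 (ENSMUSG00000021701), a polo-like kinase with a role in centriole duplication, was measured at 9.76, 12.9 and 9.11 CPM with CX-5461 and at 0.750, 1.21 and 0.403 CPM with vehicle. Those levels rest on 370, 282 and 214 counts with CX-5461 and on 36, 32 and 9 counts with vehicle. The vehicle counts are the lowest of the 10 members, so counting limits the vehicle level of Plk2 most. Its log2 fold change was 3.73 (95% interval 2.96 to 4.51, edgeR quasi-likelihood adjusted p = 0.005). Zmat3 (ENSMUSG00000027663), a zinc finger RNA-binding protein, was measured at 27.89, 33.83 and 35.97 CPM with CX-5461 and at 10.16, 9.20 and 10.96 CPM with vehicle. It rose 3.22-fold, with a log2 fold change of 1.69 (95% interval 1.41 to 1.97, edgeR quasi-likelihood adjusted p = 0.00164).

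The antiproliferative members Btg2 and Gadd45a did not pass the test. Btg2 (ENSMUSG00000020423), which encodes a partner of the CCR4-NOT deadenylase that restrains proliferation, was measured at 38.6, 41.3 and 42.2 CPM with CX-5461 and at 52.1, 85.8 and 40.2 CPM with vehicle. Vehicle library 3 lay within the CX libraries and vehicle library 2 lay far above them. The log2 fold change was -0.55 (95% interval -1.14 to 0.048, edgeR quasi-likelihood adjusted p = 0.188). Gadd45a (ENSMUSG00000036390), a stress sensor that binds PCNA and activates stress kinases, was measured at 6.57, 8.22 and 6.90 CPM with CX-5461 and at 14.0, 27.3 and 7.92 CPM with vehicle. CX library 2 exceeded vehicle library 3, and the SD was 0.874 CPM with CX-5461 and 9.91 CPM with vehicle. The log2 fold change was -1.19 (95% interval -2.15 to -0.22, edgeR quasi-likelihood adjusted p = 0.103). The authors' deposited table, in contrast, put Gadd45a past the threshold at a log2 fold change of -1.19 (FDR 0.00456), and Btg2 not (FDR 0.117). An antisense transcript, E230016M11Rik, shares 337 of the 1764 exonic bases of Gadd45a in GENCODE vM21, and the unstranded counts do not separate them.

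Vehicle library 2, which was highest in Btg2 and Gadd45a, was also highest in the erythroid and neutrophil marker sums, and vehicle library 3 was the lowest vehicle library in all of these. Without vehicle library 2, the log2 fold change was -0.19 for Btg2 (adjusted p = 0.303) and -0.63 for Gadd45a (adjusted p = 0.143) by the edgeR quasi-likelihood test. Without vehicle library 3 Gadd45a passed the same test, at -1.51 (adjusted p = 0.0315). With the mean log2 level of the erythroid markers as a covariate, the fitted log2 fold change was 0.49 for Btg2 and 0.58 for Gadd45a, and with the neutrophil markers 0.62 and 0.85. Those positive values had adjusted p of 0.326 to 0.496 in the edgeR quasi-likelihood test. Both marker sums were lower in every CX library than in every vehicle library. These covariates thus go along with the treatment, and fits that use them, here and below, cannot tell the covariate and the treatment apart. The 3 genes whose gene-centred log2 CPM over the 6 libraries was most like Btg2 were Ubac1, Urod, a haem biosynthesis enzyme, and Ptdss2, at root mean square differences of 0.0501, 0.0546 and 0.0691. Those most like Gadd45a were Fam220a, Fam210b and Chac2, at 0.0772, 0.0962 and 0.105.

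**Figure D2:**
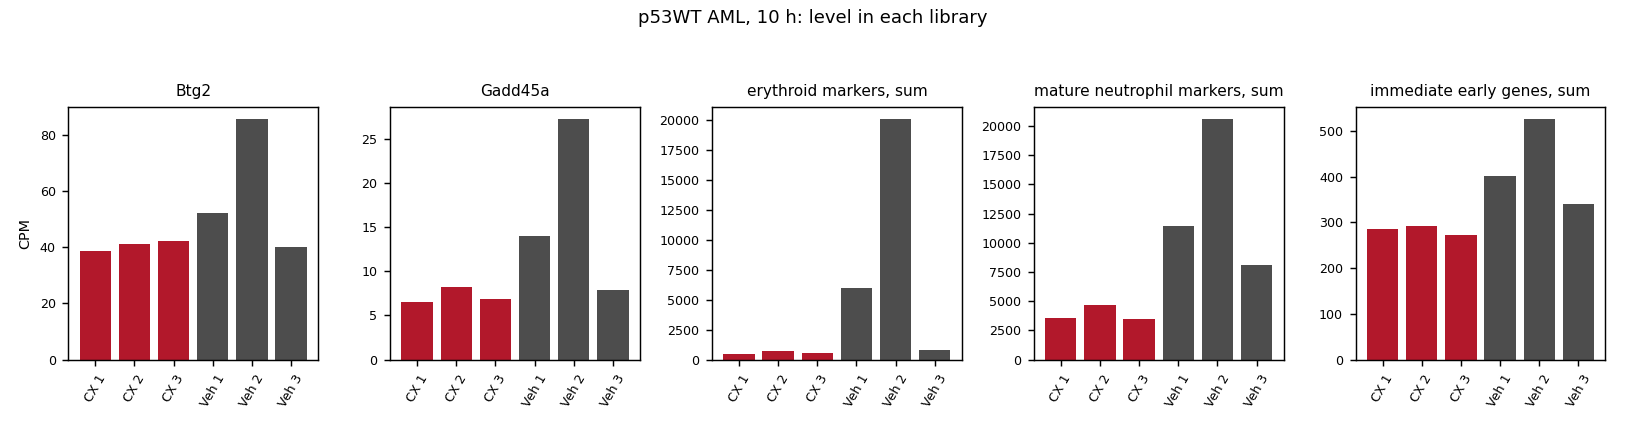
Levels in each of the 6 libraries of p53WT AML at 10 h, in CPM (y axes, from 0): Btg2, Gadd45a, and the summed erythroid markers, mature neutrophil markers and immediate early genes, with CX-5461 libraries 1 to 3 left of vehicle libraries 1 to 3. In all 5 panels vehicle library 2 is highest and vehicle library 3 is the lowest of the vehicle libraries.

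Among the 6 members that rose, Cdkn1a, Mdm2 and Plk2 had the vehicle libraries in that order too (2, 1, 3 from high to low), but all of them below the CX libraries. In Phlda3 and Zmat3 vehicle library 2 was the lowest, and in Ccng1 it lay between the others. With the erythroid or the neutrophil covariate, Cdkn1a stayed at a log2 fold change of 2.41 and 2.47, Phlda3 at 3.71 and 3.73, and Ccng1 at 1.15 and 1.16, and these 3 passed the edgeR quasi-likelihood test in both fits. Plk2 passed in both as well, but its log2 fold change moved to 5.11 (adjusted p = 0.0410) and 5.71 (adjusted p = 0.0173) by that test, against 3.73 without a covariate. Zmat3 no longer passed, at 1.503 (adjusted p = 0.122) and 1.476 (adjusted p = 0.136), in fits that called 20 and 18 of all 12679 genes. Mdm2 stood at 0.91 (adjusted p = 0.0560) with the erythroid and at 0.96 (adjusted p = 0.0498) with the neutrophil covariate by the same test. With the monocyte and macrophage covariate Mdm2, Plk2 and Zmat3 did not pass (0.93, 4.42 and 1.498, with edgeR adjusted p of 0.0916, 0.214 and 0.273).

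In p53null AML at 10 h, 0 of the 7 members listed passed an FDR of 0.05 in the authors' deposited table, where 0.148% of 12861 genes rose and 0.0389% fell. Also 0 of these 7 had an unadjusted p under 0.05 in the authors' deposited table, and no other tool could be run without counts. Cdkn1a had implied levels of 54.5 CPM with CX-5461 and 55.7 CPM with vehicle in the authors' deposited table, a log2 fold change of -0.03 (FDR 1). For Mdm2 the authors' deposited table implied 96.4 CPM with CX-5461 and 97.1 CPM with vehicle, a log2 fold change of -0.01 (FDR 1). For Ccng1 the authors' deposited table implied 54.3 CPM with CX-5461 and 51.6 CPM with vehicle, a log2 fold change of 0.07 (FDR 1). Ppm1d, with a log2 fold change of -0.15, had the lowest p of the 7 in the authors' deposited table, 0.0582 (FDR 0.856). Btg2 and Gadd45a stood at -0.14 (FDR 0.945) and -0.15 (FDR 1) in the authors' deposited table. The median over the 7 was -0.03 in the authors' deposited table and that over all its genes was -0.00189. Phlda3, Plk2 and Zmat3 were not listed, and the lowest mean level of a listed gene was 0.924 CPM. No marker of the erythroid (7 of 15 listed), neutrophil (15 of 15) or monocyte and macrophage (12 of 12) lists passed the FDR in the authors' deposited table of p53null AML. Whether the p53null and p53WT responses differ was not tested, because p53null counts per library were not analysed here.

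**Figure D3:**
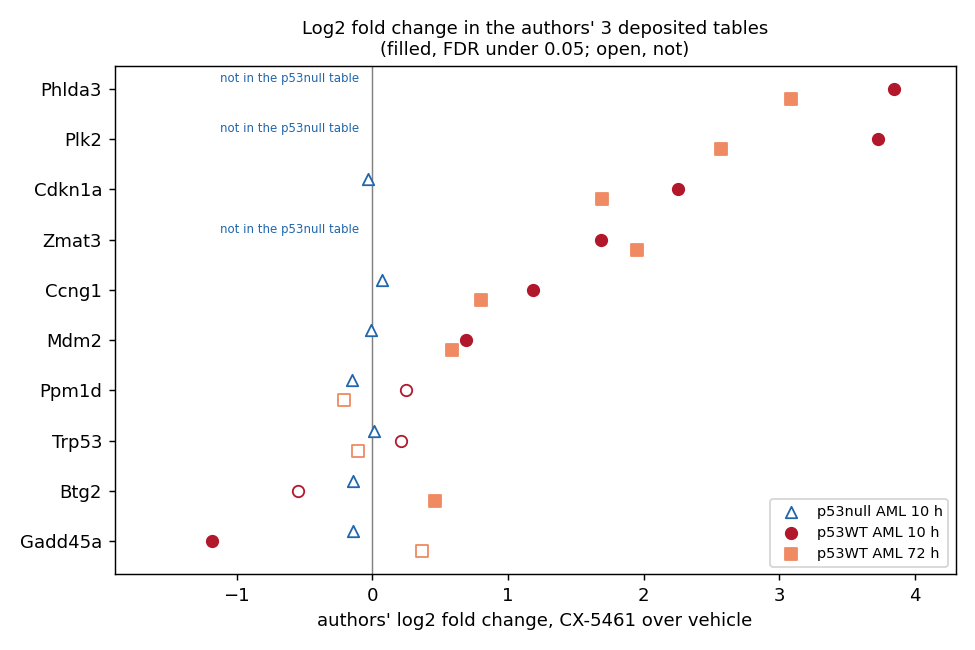
Log2 fold change of CX-5461 over vehicle (x axis) for each member (y axis) in the authors' 3 deposited tables, p53null AML at 10 h (triangles), p53WT AML at 10 h (circles) and at 72 h (squares), filled where the FDR was under 0.05. The 7 triangles lie close to 0, while both p53WT comparisons have Phlda3, Plk2, Cdkn1a, Zmat3, Ccng1 and Mdm2 filled and to the right.

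At 72 h in p53WT AML, 7 members rose and 0 fell at an FDR of 0.05 in the authors' deposited table, where 16.1% of 12838 genes rose and 15.1% fell. At an unadjusted p under 0.05, 8 members were higher and 1 lower in the authors' deposited table, and no other tool could be run without counts. Zmat3 had the smallest p of the table and Phlda3 the next. For Zmat3 the authors' deposited table implied 39.8 CPM with CX-5461 and 10.3 CPM with vehicle, a log2 fold change of 1.95 (FDR 4.32e-79). For Phlda3 the authors' deposited table implied 23.1 CPM with CX-5461 and 2.72 CPM with vehicle, a log2 fold change of 3.08 (FDR 2.83e-75). Cdkn1a was at 1.70 (FDR 1.44e-32) in the authors' deposited table, with implied levels of 184 CPM with CX-5461 and 56.6 CPM with vehicle. Plk2 was at 2.57 (FDR 1e-29) in the authors' deposited table, with implied levels of 4.62 CPM with CX-5461 and 0.777 CPM with vehicle. Ccng1 and Mdm2 rose by 0.80 and 0.59 on the log2 scale in the authors' deposited table (FDR 4.64e-16 and 1.21e-10). Btg2 was the seventh, at a log2 fold change of 0.46 (FDR 0.000102) in the authors' deposited table, with implied levels of 41.3 CPM with CX-5461 and 30.0 CPM with vehicle. Gadd45a (0.37, FDR 0.0811), Ppm1d (-0.21, FDR 0.0900) and Trp53 did not pass in the authors' deposited table.

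Erythroid, neutrophil and most of the called monocyte and macrophage markers were higher with CX-5461 at 72 h, where those called at 10 h were lower. In the authors' deposited table for 72 h, 9 of 15 erythroid, 14 of 15 neutrophil and 7 of 12 monocyte and macrophage markers were higher with CX-5461, and 2 monocyte and macrophage markers were lower. Their median log2 fold changes in the authors' deposited table were 1.13, 1.18 and 0.81. Whether the 72 h values of Btg2 and Gadd45a go along with these markers was not tested, since no values per library were at hand.

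Set side by side, the fold change was smaller at 72 h than at 10 h for Phlda3, Plk2, Cdkn1a, Ccng1 and Mdm2 and larger for Zmat3, in the authors' deposited tables of p53WT AML. For Cdkn1a the authors' deposited tables gave 2.25 at 10 h and 1.70 at 72 h on the log2 scale, and for Zmat3 1.69 at 10 h and 1.95 at 72 h. Btg2 and Gadd45a had negative values at 10 h and positive values at 72 h in the authors' deposited tables. None of these differences between times was tested, because counts per library at 72 h were not analysed here.

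The vehicle levels implied by the authors' deposited tables, normalised separately and without error, give the baseline of each member. With vehicle, Cdkn1a stood at 55.7 CPM in p53null AML at 10 h, and in p53WT AML at 51.6 CPM at 10 h and 56.6 CPM at 72 h, as implied by the authors' deposited tables. Mdm2 and Ppm1d were as close, with p53null over p53WT ratios at 10 h of 1.07 and 1.01 in the authors' deposited tables. Ccng1 was not, at 51.6 CPM in p53null AML, 173 CPM in p53WT AML at 10 h and 170 CPM at 72 h in the authors' deposited tables. Its vehicle level in p53null AML was 0.299 times that in p53WT AML at 10 h by the authors' deposited tables. Btg2 with vehicle was 20.3 CPM in p53null AML, 59.3 CPM in p53WT AML at 10 h and 30.0 CPM in p53WT AML at 72 h in the authors' deposited tables, and Gadd45a was 22.04, 16.48 and 7.75 CPM. The vehicle level of p53WT AML at 72 h was 0.506 times that at 10 h for Btg2 and 0.470 times for Gadd45a in the authors' deposited tables, while Cdkn1a, Ccng1, Mdm2, Plk2 and Zmat3 had vehicle ratios of 72 h over 10 h between 0.940 and 1.10, and Phlda3 of 1.195, in the authors' deposited tables. At 10 h the p53WT vehicle libraries ranged from 40.2 to 85.8 CPM for Btg2 and from 7.92 to 27.3 CPM for Gadd45a. None of these differences in baseline was tested.

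**Figure D4:**
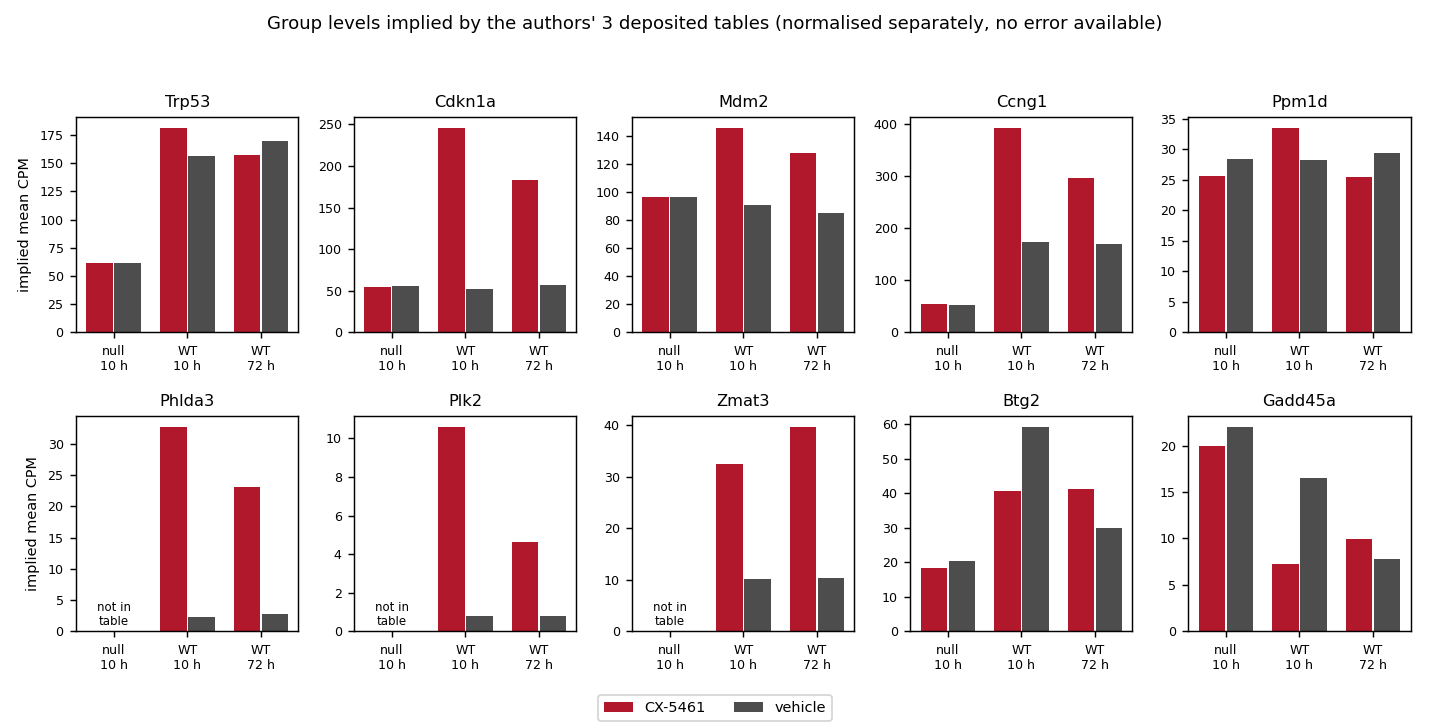
Group means implied by the authors' deposited tables, in CPM (y axes, from 0), for CX-5461 (red, left of each pair) and vehicle (grey), with p53null AML (10 h) left of p53WT AML (10 h, then 72 h); the tables were normalised separately and allow no error bars. Cdkn1a and Mdm2 have similar vehicle bars in all 3 comparisons, whereas the Trp53, Ccng1 and Btg2 vehicle bars are lower in p53null AML.

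The counts of the following lists in the main fit stand against the shares of all genes given above. At 10 h in p53WT AML, 3.78% rose and 4.32% fell. Other settings called other numbers over the whole table. Genes that rose and fell numbered 696 and 1020 by the edgeR exact test, 962 and 1352 by DESeq2, and 394 and 330 by limma-voom. Without CX library 1, 2 or 3 in turn, 24, 23 and 23 of all genes rose and 1, 0 and 0 fell. A loss of calls in those fits is thus not particular to any list. Among 20 genes that act on p53, 2 rose and 0 fell (edgeR quasi-likelihood test, adjusted p under 0.05), and 3 had a lower level with an unadjusted p under 0.05. The number that fell was 1 by the edgeR exact test, 2 by DESeq2 and 0 by limma-voom. Mdm4, the MDM2 relative that masks the p53 activation domain, was at 110 ± 1.58 CPM with CX-5461 and 74.4 ± 8.72 CPM with vehicle (SD, n = 3), a log2 fold change of 0.56 (edgeR quasi-likelihood adjusted p = 0.0273). Atr, a kinase of the replication stress response, rose by 0.38 (adjusted p = 0.0483 in that edgeR test). Rchy1, a ubiquitin ligase of p53, and the nucleolar protein gene Npm1 stood at -0.32 and 0.22 and did not pass (adjusted p = 0.0628 and 0.0757 by edgeR). With any 1 of the CX libraries left out, 0 genes of this list passed. The median over the list was 0.02, against 0.00404 over all genes. In p53null AML 0 of 20 passed in the authors' deposited table, with 0 higher and 1 lower at an unadjusted p under 0.05. At 72 h in p53WT AML 2 rose and 3 fell in the authors' deposited table, where 16.1% and 15.1% of all genes did.

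Other p53 targets were a list of 38 genes, among them genes of apoptosis, metabolism, repair and the cell cycle. Of the 38, 30 were measured at 10 h in p53WT AML and passed the test in the upward direction only. At 10 h 15 rose and 0 fell by the edgeR quasi-likelihood test, with 2 lower at an unadjusted p under 0.05 and 0 that fell by the edgeR exact test, DESeq2 or limma-voom, and the median log2 fold change was 0.67. Gtse1, which restrains p53 in the G2 phase, was at 144 ± 3.01 CPM with CX-5461 and 61.8 ± 3.25 CPM with vehicle (SD, n = 3), a log2 fold change of 1.22. Aen, an apoptosis-enhancing nuclease, rose by 0.96 on the log2 scale, with the same adjusted p of 0.000208 by edgeR as Gtse1. The BCL2 family genes Bax and Bbc3 rose by 0.98 and 1.68 (adjusted p = 0.000506 for each by edgeR). Without CX library 1, 2 or 3, the number that rose was 9, 8 and 8, with medians of 0.67, 0.64 and 0.70. With the erythroid or the neutrophil covariate it was 8 and 5, with medians of 0.65 and 0.73. In p53null AML 0 of 30 passed in the authors' deposited table, where 2 were higher and 1 lower at an unadjusted p under 0.05 and the median was -0.05. At 72 h in p53WT AML 16 of 31 rose and 0 fell in the authors' deposited table, with a median of 0.26. Of all genes 16.1% rose and 15.1% fell there.

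The cyclins, their kinases and the RB and E2F genes, on whose proteins p21 acts, passed in both directions at 10 h in p53WT AML. Of 21 genes, 3 rose and 1 fell by the edgeR quasi-likelihood test, and the median was -0.01, which turned to 0.13, 0.14 and 0.11 with the erythroid, neutrophil and monocyte covariates. The counts were 6 and 2 by DESeq2, 5 and 2 by the edgeR exact test, and 2 and 1 by limma-voom. With the replicate block they were 5 and 2, where 679 of all genes rose and 857 fell. Rbl2, a pocket protein that represses cell cycle genes, rose by 0.33 on the log2 scale (adjusted p = 0.0213 by edgeR). E2f3 rose by 0.33 (adjusted p = 0.0364) and the cyclin D gene Ccnd1 by 0.98 (adjusted p = 0.0454), while its relative Ccnd3 stood at -0.47 (adjusted p = 0.0401 by edgeR). With any 1 of the CX libraries left out, 0 genes of this list passed, in fits that called 24, 23 and 23 genes higher over the whole table. Without vehicle library 2 the number that fell was 2, where 665 of all genes fell. In p53null AML the authors' deposited table had 2 that rose, Ccnb1 at 0.41 (FDR 0.000172) and Cdk1 at 0.27 (FDR 0.00308), which encode the mitotic cyclin and its kinase. In p53WT AML at 10 h the log2 fold changes of Ccnb1 and Cdk1 were -0.06 and -0.05 (adjusted p = 0.658 and 0.644 by edgeR). At 72 h 7 rose and 2 fell in the authors' deposited table, where 16.1% and 15.1% of all genes did.

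Most relatives of the members by sequence did not pass the test. Of 25 paralogs, 21 were measured, and 1 rose and 2 fell at 10 h by the edgeR quasi-likelihood test. Ccng2, the relative of Ccng1, was at 32.3 ± 1.21 CPM with CX-5461 and 54.3 ± 6.58 CPM with vehicle (SD, n = 3), a log2 fold change of -0.75 (edgeR quasi-likelihood adjusted p = 0.0161). Mdm4 was the paralog that rose, and Ccni was the other that fell, by 0.41 on the log2 scale (adjusted p = 0.0401 by edgeR). Btg1, the relative of Btg2, stood at -0.67 (adjusted p = 0.0547 by edgeR). The number that fell was 6 by the edgeR exact test, 7 by DESeq2, 4 without vehicle library 2 and 6 without vehicle library 3. Of all genes, 1020, 1352, 665 and 840 fell in those settings. With any 1 of the CX libraries left out 0 of the paralogs fell, where 1, 0 and 0 of all genes did. The median was -0.15, against -0.05 without vehicle library 2, and it turned to 0.03, 0.08 and 0.00704 (13, 14 and 13 of 21 positive) with the erythroid, neutrophil and monocyte covariates. In p53null AML 0 of 21 passed in the authors' deposited table, with 1 higher and 2 lower at an unadjusted p under 0.05. At 72 h 5 rose and 1 fell in the authors' deposited table, where 16.1% and 15.1% of all genes did.

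Btg2 is also known as an immediate early gene of growth factor signalling and Gadd45a as a gene of many stresses, so the immediate early genes were set beside them. Of 17, 14 were measured at 10 h in p53WT AML, and 0 rose and 4 fell by the edgeR quasi-likelihood test, with 0 higher at an unadjusted p under 0.05 and 0 that rose by the edgeR exact test, DESeq2 or limma-voom. All 14 log2 fold changes were negative, with a median of -0.59, but the median turned to 0.08, 0.22 and 0.07 (9, 10 and 8 of 14 positive) with the erythroid, neutrophil and monocyte covariates. The genes that fell were the zinc finger factor genes Klf6 (-0.94, adjusted p = 0.0213) and Klf2 (-1.45, adjusted p = 0.0408), the mRNA decay gene Zfp36 (-0.84, adjusted p = 0.0412) and the phosphatase gene Dusp1 (-1.65, adjusted p = 0.0498), by edgeR. Their summed level with the rest of the list was 285, 292 and 272 CPM with CX-5461 and 401, 526 and 340 CPM with vehicle, in library order. Vehicle library 2 was highest there too. The number that fell was 2 without vehicle library 1, 6 without vehicle library 3 and 1 by limma-voom. Of all genes, 861, 840 and 330 fell in those settings. With any 1 of the CX libraries left out 0 of the list fell, where 1, 0 and 0 of all genes did. With the erythroid or the neutrophil covariate 0 genes passed in this list or among the paralogs. The same held among the cyclins and their partners and the genes that act on p53. Those 2 fits called 20 and 18 of all genes. At 72 h 8 of 13 rose and 0 fell in the authors' deposited table, with a median of 0.55. Of all genes 16.1% rose and 15.1% fell there. In p53null AML 0 of 16 passed in the authors' deposited table, with 1 higher and 4 lower at an unadjusted p under 0.05.

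The genes whose pattern was most like that of Cdkn1a were found by distance. Over the log2 fold changes of the authors' 3 deposited tables, among 11712 genes listed in all, the nearest was the receptor kinase gene Epha2, at a distance of 0.202. Epha2 had -0.18 in p53null AML, 2.14 in p53WT AML at 10 h and 1.78 at 72 h in the authors' deposited tables. Sesn2, a stress-induced regulator of mTORC1 signalling, and the long noncoding RNA gene Trp53cor1 followed at distances of 0.555 and 0.736 in the authors' deposited tables. Over the 6 libraries with counts, Epha2, Ak1 and Slc19a2 were nearest to Cdkn1a, with root mean square differences in gene-centred log2 CPM of 0.199, 0.225 and 0.228. Slc19a2, a thiamine transporter gene, was measured at 64.8, 71.7 and 60.6 CPM with CX-5461 and at 19.8, 18.3 and 17.2 CPM with vehicle. Epha2, Sesn2, Trp53cor1 and Ak1 were also on the list of other p53 targets above, and Slc19a2 was not.

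**Figure D5:**
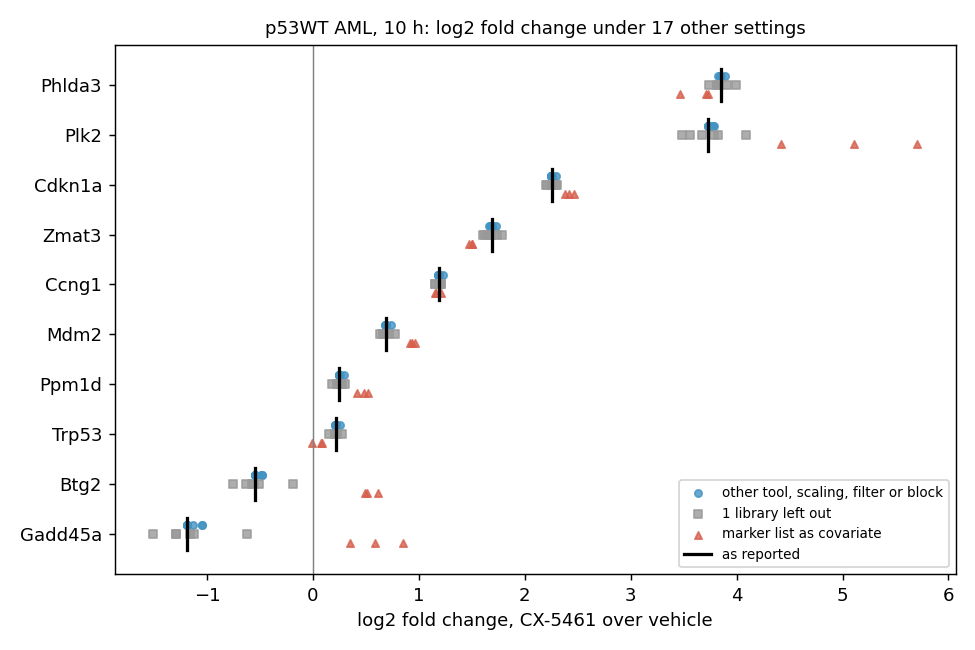
Log2 fold change of CX-5461 over vehicle in p53WT AML at 10 h (x axis) for each member (y axis) as reported (black bar) and under 17 other settings: other tools, scaling, filter or block (circles), 1 library left out (squares) and a marker list as covariate (triangles). Phlda3, Cdkn1a and Ccng1 stay between 3.47 and 3.99, 2.20 and 2.47, and 1.15 and 1.23, whereas Btg2 and Gadd45a lie on both sides of 0.

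Over those 17 settings, Cdkn1a, Phlda3 and Ccng1 passed every time. Plk2 passed in 16, Zmat3 in 14 and Mdm2 in 12. Ppm1d passed in none, with a lowest adjusted p of 0.0503 by the edgeR quasi-likelihood test without vehicle library 2. DESeq2 gave it an adjusted p of 0.0712. Trp53 passed, as higher, in 2. Btg2 passed in none, and Gadd45a passed, as lower, in 3.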

How the data were processed

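RNA-seq was made from 18 samples in 6 groups of 3. The submitters' processing notes name the build mm9 and the tools Bowtie, HTSeq, edgeR and CASAVA 1.8.2; the annotation and settings are not given in the sources used here. For p53WT AML at 10 h the authors deposited whole-number counts per gene and library, and every one of the 12679 genes listed exceeded 1 CPM in at least 3 libraries. For each comparison the authors deposited log2 fold changes and mean log2 CPM. The authors also deposited a p-value and an FDR per gene. Group levels implied by these tables assume that both groups weigh alike; in the comparison with counts they were 0.997 to 1.02 times the measured means. The sign of the log2 fold changes, CX-5461 over vehicle, was checked against counts in that comparison (Pearson r across genes, 0.9997).

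From the counts, TMM factors and edgeR 4.0.16 quasi-likelihood tests (R 4.3.3) were computed over all genes with no further filter, two-sided, with Benjamini-Hochberg adjustment and a threshold of 0.05. Log2 CPM used a prior count of 2 and intervals are 95%. Limma 3.58.1 (voom) and DESeq2 1.42.0 were alternatives, with other scalings, a filter at a mean of 5 CPM, single libraries left out, a replicate block and marker lists as covariates. The fit was tested on simulated data. Symbols matched 12237, 12366 and 12362 of the 12679 (p53WT AML, 10 h), 12861 (p53null AML) and 12838 (p53WT AML, 72 h) identifiers. Count columns name the group and not the titled sample, so library numbers here are those of the columns. The members, gene lists, markers and tests were chosen with earlier results of these data known. All members were named, with the 4 genes of smallest p in each list and the 3 genes nearest in pattern; other genes named were chosen after their values were seen. Precision was limited by 3 libraries per group and, for the lowest genes, by counting. The planned tests between genotypes and times could not be made without counts.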

Additional observations from a re-analysis of the deposited data

How the results depend on the processing

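In p53WT AML at 10 h, the number of members that rose was 6 and the number that fell 0. With other scalings, a filter at a mean of 5 CPM, robust estimation or limma-voom both counts were unchanged. The number that fell was 1 with the edgeR exact test and 1 with DESeq2 (Gadd45a each time). Leaving out single libraries gave 5 to 7 members that rose and 0 to 1 that fell, the 1 being Gadd45a without vehicle library 3. Leaving out CX library 1, 2 or 3 gave 24, 23 and 23 genes that rose over the whole table, against 479 with all libraries; the cause was not tested. With the replicate block by column number 6 rose and 0 fell (679 and 857 of all genes). Deviations of same-numbered libraries correlated at r = 0.301, 0.107 and 0.0274, and those of differently numbered libraries at r = -0.2025 to 0.0933. The main fit did not take the numbers as pairs, and whether the libraries were paired is not known.

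With the erythroid or the neutrophil markers as a covariate 4 and 5 members rose, where 20 and 18 of all genes did. Both marker sums separated the CX from the vehicle libraries, so these fits cannot tell covariate and treatment apart. With the monocyte and macrophage markers, an alternative chosen after seeing the data, 3 rose (Cdkn1a, Phlda3 and Ccng1), and the log2 fold change of Trp53 was -0.0122. Btg2 turned to 0.49, 0.62 and 0.51, and Gadd45a to 0.58, 0.85 and 0.35, with the erythroid, neutrophil and monocyte covariates in that order; the cause was not tested. In the authors' deposited table for 72 h, an FDR of 0.1 gave 1 member that fell, Ppm1d. For p53null AML the counts in the authors' deposited table were 0 at an FDR of 0.01 and of 0.1. Depth limits Plk2 most, with 9 counts in its lowest vehicle library.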
